A study of Gallus gallus with 12 samples.

Results

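The circadian clock genes described here are 10 core clock factors and output factors, ARNTL, CLOCK, NPAS2, PER2, PER3, CRY1, CRY2, NR1D2, BHLHE40 and TEF. They were taken by gene symbol from tables of 18332 genes, and each symbol matched 1 gene identifier. Expression was measured by bulk RNA sequencing of liver and abdominal fat of normal female Xinghua chickens, aged 8 weeks according to the labels, that received a high-fat diet (HN) or a normal diet (NN). By the study's methods the birds had that age at the start and were on the diets for 2 weeks before slaughter. There were 3 HN livers, 3 NN livers, 3 HN abdominal fats and 3 NN abdominal fats, 12 libraries in all. None of these birds carried the dwarfing mutation that the study examined in its other chickens. The time of day at slaughter, the light cycle and the time since the last meal are not given in the sources used here. The labels number the libraries of each diet and tissue from 1 to 3 without saying whether a liver and a fat of the same number came from the same bird.

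The circadian clock is a feedback loop of transcription that runs in nearly every cell. ARNTL (also called BMAL1) pairs with CLOCK or NPAS2 and switches on genes that carry E-box elements, among them PER and CRY genes, whose proteins return to the nucleus and repress the pair. NR1D2 (REV-ERB beta) represses ARNTL in mammals, BHLHE40 (DEC1) represses E-box genes, and TEF binds D-box elements of output genes. In liver and fat the clock is known for timing lipid and glucose metabolism, and feeding and glucocorticoids can shift it.

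Values are FPKM, fragments per kilobase of transcript scaled to the mapped total of each library, and can therefore be compared between genes. Between 10735 and 12412 genes reached 1 FPKM in a library, and depth in reads is unknown because no counts were given. The tissue labels matched the markers, since ALB reached 19544 to 55672 FPKM in the livers and at most 96.5 FPKM in the fats, and FABP4 reached 10767 to 15730 FPKM in the fats and at most 3.87 FPKM in the livers. HN replicate 2 stood apart in both tissues, with 106 genes at or above 2 times the next HN library in liver and in fat, against 7 genes for HN replicate 1 and 21 for HN replicate 3. Results that rest on it are therefore given with and without it. In bulk tissue, fewer cells of a type and less RNA per cell cannot be told apart.

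The activators of the loop were all expressed, at lower FPKM in liver than in abdominal fat. ARNTL was present at 4.14, 3.95 and 3.84 FPKM in HN livers, against 9.29, 5.22 and 3.47 FPKM in NN livers. In abdominal fat ARNTL reached 16.94, 27.01 and 19.94 FPKM in HN chickens, against 23.64, 20.42 and 18.81 FPKM in NN chickens. The 3 HN livers were nearly equal, the NN livers spread widely around them, and the diets overlapped in both tissues. CLOCK, the classical partner of ARNTL, had 5.86, 3.70 and 4.80 FPKM in HN livers, against 6.92, 6.26 and 5.40 FPKM in NN livers. In fat CLOCK had 11.76, 10.23 and 14.70 FPKM in HN chickens, against 13.97, 15.59 and 13.40 FPKM in NN chickens. HN replicate 2 was the lowest library for CLOCK in each tissue. NPAS2, which can take the place of CLOCK, had 3.30, 3.30 and 2.53 FPKM in HN livers, against 5.33, 2.55 and 3.16 FPKM in NN livers. In fat NPAS2 had 10.16, 6.69 and 8.20 FPKM in HN chickens, against 7.20, 7.61 and 9.36 FPKM in NN chickens. Every fat library lay above every liver library for all 3 activators.

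**Figure D1:**
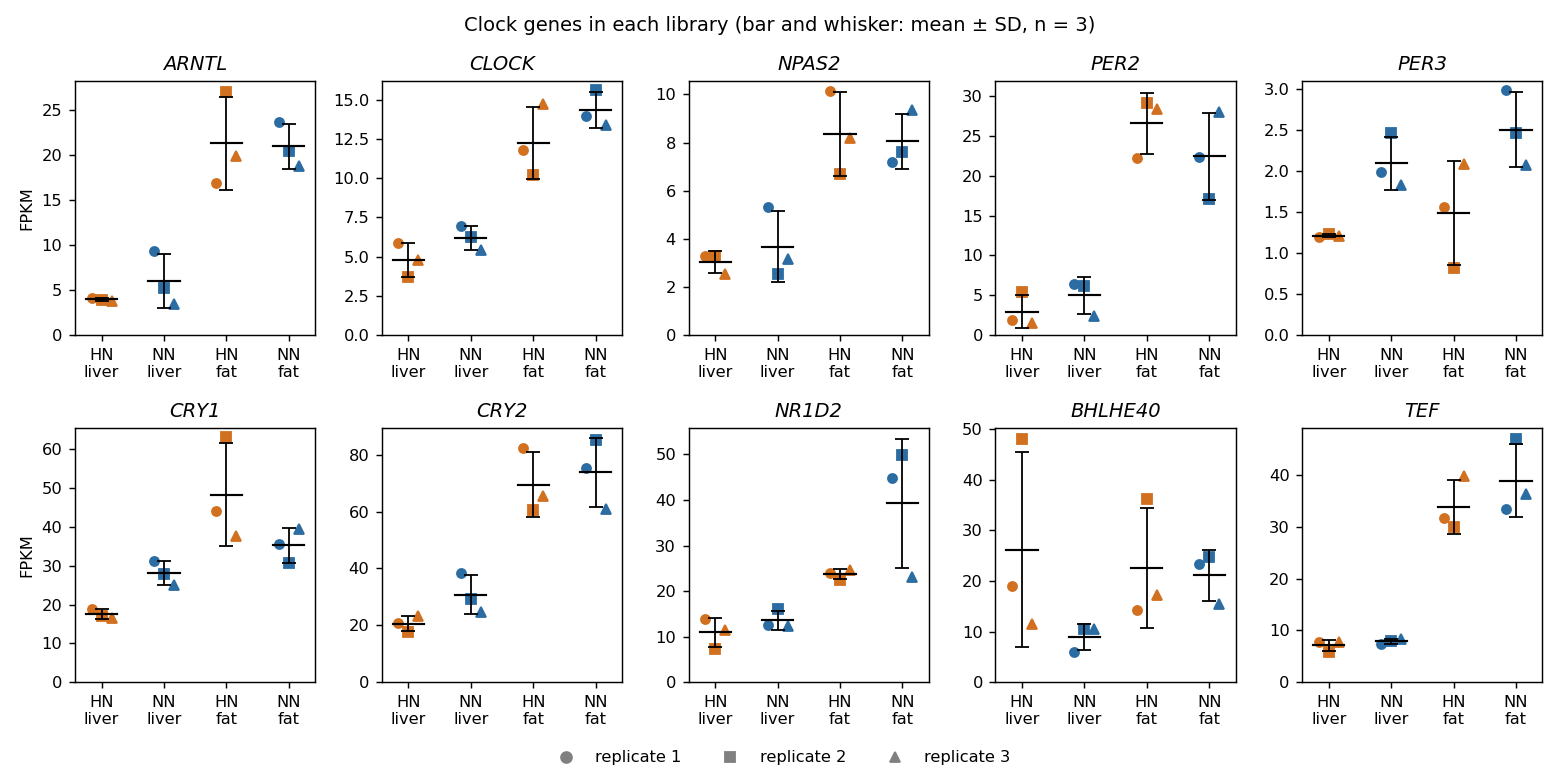
FPKM of the 10 clock genes in each library, by diet and tissue, on a linear axis from 0. Points are libraries with the marker shape giving the replicate number, and the bar and whisker are the mean ± SD of 3 libraries. ARNTL, CLOCK, NPAS2, PER2, CRY2, NR1D2 and TEF were higher in every fat than in every liver, and BHLHE40 was highest in HN replicate 2 in both tissues.

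The period genes differed widely in level. PER2 had 1.93, 5.38 and 1.57 FPKM in HN livers, against 6.47, 6.12 and 2.35 FPKM in NN livers. In fat PER2 reached 22.18, 29.16 and 28.41 FPKM in HN chickens, against 22.33, 17.08 and 28.01 FPKM in NN chickens. PER2 varied several-fold among the livers of each diet, and the diets overlapped in both tissues. PER3, the other period gene measured, was the least abundant of the 10 in every group by its mean. It had 1.2, 1.23 and 1.21 FPKM in HN livers, against 1.99, 2.46 and 1.83 FPKM in NN livers, so that the HN livers were almost identical and all lay below the NN livers. In fat PER3 had 1.56, 0.82 and 2.09 FPKM in HN chickens, against 2.99, 2.46 and 2.07 FPKM in NN chickens, with an overlap at HN replicate 3.

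The cryptochromes, which bind and inhibit the activator pair, were among the most abundant. CRY1 had 18.96, 17.07 and 16.64 FPKM in HN livers, against 31.16, 27.91 and 25.08 FPKM in NN livers. In fat the order of the diet means was the opposite, with 44.01, 63.08 and 37.69 FPKM of CRY1 in HN chickens, against 35.68, 30.59 and 39.39 FPKM in NN chickens. The livers did not overlap between the diets, while the fats did. CRY2 had 20.83, 17.79 and 23.18 FPKM in HN livers, against 38.23, 29.20 and 24.73 FPKM in NN livers. In fat CRY2 had 82.28, 60.64 and 65.56 FPKM in HN chickens, against 75.45, 84.98 and 60.88 FPKM in NN chickens. CRY2 was again lower in all HN livers than in all NN livers, and it overlapped in fat.

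Among the other repressors and the output factor, BHLHE40 had a coefficient of variation of 73.7% in HN livers and 52.3% in HN fats, while in NN fats NR1D2 varied more (36.3%, against 23.8% for BHLHE40). BHLHE40 had 18.98, 48.08 and 11.55 FPKM in HN livers, against 6.04, 10.48 and 10.42 FPKM in NN livers. In fat BHLHE40 had 14.36, 36.09 and 17.26 FPKM in HN chickens, against 23.36, 24.64 and 15.35 FPKM in NN chickens. The highest value in each tissue belonged to HN replicate 2, and the remaining HN livers still lay above the NN livers. NR1D2 had 13.87, 7.39 and 11.50 FPKM in HN livers, against 12.59, 15.99 and 12.26 FPKM in NN livers. In fat NR1D2 had 24.08, 22.50 and 24.61 FPKM in HN chickens, against 44.83, 49.83 and 23.05 FPKM in NN chickens. The 3 HN fats were close together, and NN fat 3 lay among them, far below the other NN fats. TEF had 7.71, 5.86 and 7.83 FPKM in HN livers, against 7.35, 7.92 and 8.40 FPKM in NN livers. In fat TEF had 31.67, 30.03 and 39.76 FPKM in HN chickens, against 33.53, 47.00 and 36.28 FPKM in NN chickens, and the diets overlapped in both tissues.

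Ranked by mean FPKM, CRY2 came first in HN fats (69.5 FPKM), in NN fats (73.8 FPKM) and in NN livers (30.7 FPKM). In HN livers BHLHE40 came first at 26.2 ± 19.3 FPKM (SD, n = 3). It overlapped in range with CRY2 at 20.6 FPKM, which in turn overlapped with CRY1. Without HN liver 2, BHLHE40 averaged 15.3 FPKM in HN livers, below CRY2 (22.0 FPKM) and CRY1 (17.8 FPKM). CRY1 followed CRY2 in NN livers with overlapping ranges, and only then came NR1D2, at 13.6 FPKM and apart from CRY1. In the middle of the order in fat, PER2, BHLHE40 and ARNTL followed each other with overlapping ranges in both diets, with NR1D2 between PER2 and BHLHE40 in HN fats. CLOCK, NPAS2 and PER3 closed the order in HN fats and in NN fats, each with a range apart from the next. In both liver groups PER3 was apart from the gene next above it, and CLOCK and ARNTL overlapped.

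The question of where the clock genes were more abundant was addressed by comparing the 6 livers with the 6 fats in limma, on log2(FPKM + 1), with p-values adjusted over the 13111 genes tested. On the deposited scale all 10 were lower in liver, of which PER3 and BHLHE40 changed sign with median-ratio scaling. Of the 10, 8 fell at an adjusted p under 0.05, and 7 had livers and fats that did not overlap. The background was high, because 61.7% of all genes tested were called lower in liver and 48.1% did not overlap with liver lower, and the median over all genes was -0.65 on the log2 scale against -1.19 for the 10. TEF showed the smallest adjusted p of the 10, at a mean of 7.51 FPKM in livers and 36.4 FPKM in fats, a log2 difference of -2.13 (SE 0.12, adjusted p = 1.1e-08). The largest difference was that of PER2, at 3.97 FPKM in livers and 24.5 FPKM in fats, or -2.47 on the log2 scale (SE 0.26, adjusted p = 3.9e-06). ARNTL averaged 4.99 FPKM in livers and 21.1 FPKM in fats, or -1.93 (SE 0.19, adjusted p = 1.6e-06). The remaining calls ranged from -1.47 for CRY2 to -0.85 for CRY1, with NR1D2, CLOCK and NPAS2 between them. BHLHE40 did not pass (17.6 FPKM in livers and 21.8 FPKM in fats, log2 difference -0.54, adjusted p = 0.152), and neither did PER3 (1.65 FPKM in livers and 2.00 FPKM in fats, -0.16, adjusted p = 0.306).

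The liver-fat difference depended on how the libraries were scaled. When the FPKM were rescaled by median ratios, which moves the median of all genes from -0.65 to 0.01, 36.1% of genes were called lower in liver and 37.2% higher, in place of 61.7% and 18.4%. Of the 10 clock genes 7 were then called lower and 1 higher, with a median of -0.49. CRY1 lost its call at -0.11 (adjusted p = 0.533), PER3 was called higher in liver at 0.33 (adjusted p = 0.0327), and BHLHE40 stood at 0.18 (adjusted p = 0.659). PER2 (-1.81), TEF (-1.41) and ARNTL (-1.25) remained the lowest 3 of the 10 under both scalings. With the same-numbered liver and fat of a diet as a block, BHLHE40 was called at -0.54 (adjusted p = 0.0312), and it was called at -0.62 (adjusted p = 0.0207) without the liver and fat of HN replicate 2. Leaving out HN fat 2 alone brought PER3 to -0.26 (adjusted p = 0.049), and leaving out HN liver 2 alone brought BHLHE40 to -0.81 (adjusted p = 0.0147).

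**Figure D2:**
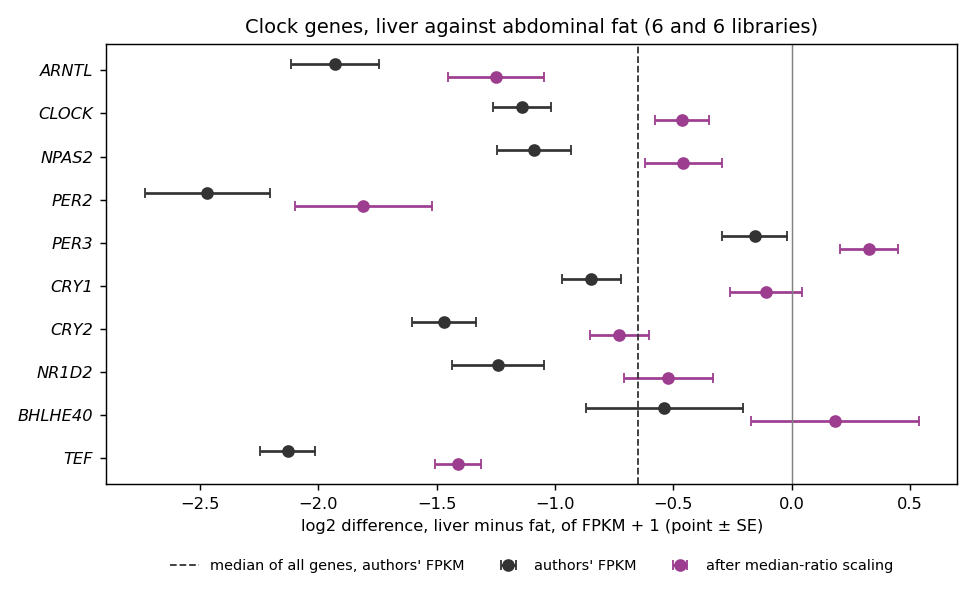
Difference between 6 livers and 6 abdominal fats for the 10 clock genes, as liver minus fat of log2(FPKM + 1), with the point and its SE. Black points use the deposited FPKM and purple points the FPKM after median-ratio scaling, and the dashed line marks the median of all genes at -0.65. PER2, TEF and ARNTL lay below -1 under both scalings, while PER3 and BHLHE40 changed sign.

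The other clock genes were 27 genes with a value to test, from a list of regulators and outputs. In the same comparison 18 were called lower and 6 higher in liver, and their median was -0.73, close to the 61.7%, 18.4% and -0.65 of all genes. After median-ratio scaling 9 were called lower and 9 higher, against 36.1% and 37.2% of all genes. These shares are near the background, and the members are given for their own values. Those called higher included USP2, a deubiquitinase with clock-controlled expression (2.41 on the log2 scale), PPARGC1A, a coactivator of the ARNTL gene (2.21), the small repressor CIART (0.91), and both gene identifiers that carry the symbol NR1D1 (1.5 and 0.69). USP2, PPARGC1A and CIART averaged under 1 FPKM in fat (0.06, 0.35 and 0.63 FPKM) and were tested only because their liver level passed the filter, so that their direction was fixed by it. The NR1D1 values contrasted with those of the related NR1D2, which was lower in liver at -1.24. NR1D1 identifier 431047 averaged 7.65 FPKM in livers and 2.02 FPKM in fats, and identifier 107055301 averaged 7.83 FPKM in livers and 4.50 FPKM in fats. The files do not say whether reads can be split between these 2 identifiers, so their values are uncertain. The identifier 107055301 overlapped between the tissues.

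Among those called lower in liver, HLF, which like TEF belongs to the PAR bZIP family and binds D-box elements, had the largest difference at -2.07, with means of 7.52 FPKM in livers and 34.6 FPKM in fats. NFIL3, which competes for D-box elements, followed at -1.96. The kinases that phosphorylate PER proteins were lower at -1.86 for CSNK1E and -1.23 for CSNK1D. Of the F-box proteins that direct cryptochrome or period turnover, FBXL21 stood at -0.92, FBXW11 at -0.73 and BTRC at -0.32. The cryptochrome CRY4 (-1.71), the cell cycle kinase WEE1 (-1.66), the CLOCK inhibitor CIPC (-1.5), the ARNTL paralogue ARNTL2 (-1.47), KLF9 (-1.24), KLF15 (-0.94), TIMELESS (-0.63), KLF10 (-0.61), SIRT1 (-0.60) and RORA (-0.27) were also called lower. RORA averaged 0.91 FPKM over the livers and was tested only because its fat level (1.3 FPKM) passed the filter. Its direction on the deposited scale was therefore fixed by the filter. After median-ratio scaling BTRC was called higher instead, at 0.34, and KLF10, RORA and SIRT1 also changed sign without a call. KLF9 (-0.55, limma adjusted p = 0.0981), FBXL21 (-0.23, adjusted p = 0.154) and KLF15 (-0.23, adjusted p = 0.469) stayed lower but lost their calls. So did TIMELESS (-0.18, adjusted p = 0.361) and FBXW11 (-0.02, adjusted p = 0.836).

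The comparison of the diets asked whether the high-fat diet changed these genes within a tissue. In liver CRY1, CRY2 and PER3 were lower and BHLHE40 higher in all 3 HN livers than in all 3 NN livers, and 9 of the 10 had a lower mean in HN livers. The median log2 difference of the 10 was -0.37, against -0.06 over all 11278 genes tested, of which 57.8% were lower. None of the 10 passed at an adjusted p under 0.05 in limma, where 0% of all genes were called, and 3 reached an unadjusted p under 0.05 with HN lower and 1 with HN higher, against 8.54% and 3.42% of all genes. Those 4 were also the genes whose livers did not overlap between the diets, which held for 21.1% of all genes, 1688 with HN lower and 690 with HN higher.

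CRY1 averaged 17.6 ± 1.2 FPKM in HN livers, against 28.1 ± 3.0 FPKM in NN livers (SD, n = 3 for each diet), a log2 difference of -0.64 (SE 0.14, limma unadjusted p = 0.0028, adjusted p = 0.392). PER3 averaged 1.21 ± 0.02 FPKM in HN livers, against 2.09 ± 0.33 FPKM in NN livers, or -0.48 (SE 0.15, unadjusted p = 0.0185, adjusted p = 0.398). CRY2 averaged 20.6 FPKM in HN livers, against 30.7 FPKM in NN livers, or -0.54 (SE 0.20, unadjusted p = 0.0299, adjusted p = 0.399). PER2 stood at -0.63 with an unadjusted p of 0.2. BHLHE40 averaged 26.2 ± 19.3 FPKM in HN livers, against 9.0 ± 2.5 FPKM in NN livers, or 1.25 (SE 0.49, unadjusted p = 0.0404, adjusted p = 0.406). The activators ARNTL (-0.41), CLOCK (-0.33) and NPAS2 (-0.17), and also NR1D2 (-0.32) and TEF (-0.14), overlapped between the diets.

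HN replicate 2 carried part of these values. Without HN liver 2, BHLHE40 stood at 0.70 (unadjusted p = 0.066), CRY2 at -0.44 (unadjusted p = 0.0822), CRY1 at -0.63 (unadjusted p = 0.0075) and PER3 at -0.48 (unadjusted p = 0.0296), while PER2 reached -1.04 (unadjusted p = 0.0357). The adjusted p of CRY1 lay between 0.159 and 0.823 over all alternatives, and that of BHLHE40 between 0.228 and 0.823. The split over all genes at an unadjusted p under 0.05 was 386 higher and 963 lower on the deposited scale, but 801 higher and 567 lower after median-ratio scaling, so that the excess of lower values among all genes depended on the scaling. The hepatocyte markers summed to 42249 to 51090 FPKM in HN livers, against 55900 to 70669 FPKM in NN livers, but this was carried by ALB. Over the other 5 markers the sum was 16829 to 22705 FPKM in HN livers, against 14998 to 18273 FPKM in NN livers, and 3 of the 6 markers were higher and 3 lower in HN livers. All 5 endothelial markers had a lower mean in HN livers (median log2 difference -0.43), with 1 at an unadjusted p under 0.05 and a sum of 35.2 to 58.4 FPKM in HN livers, against 51.2 to 74.4 FPKM in NN livers. The part of these markers in the clock gene values was not tested.

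**Figure D3:**
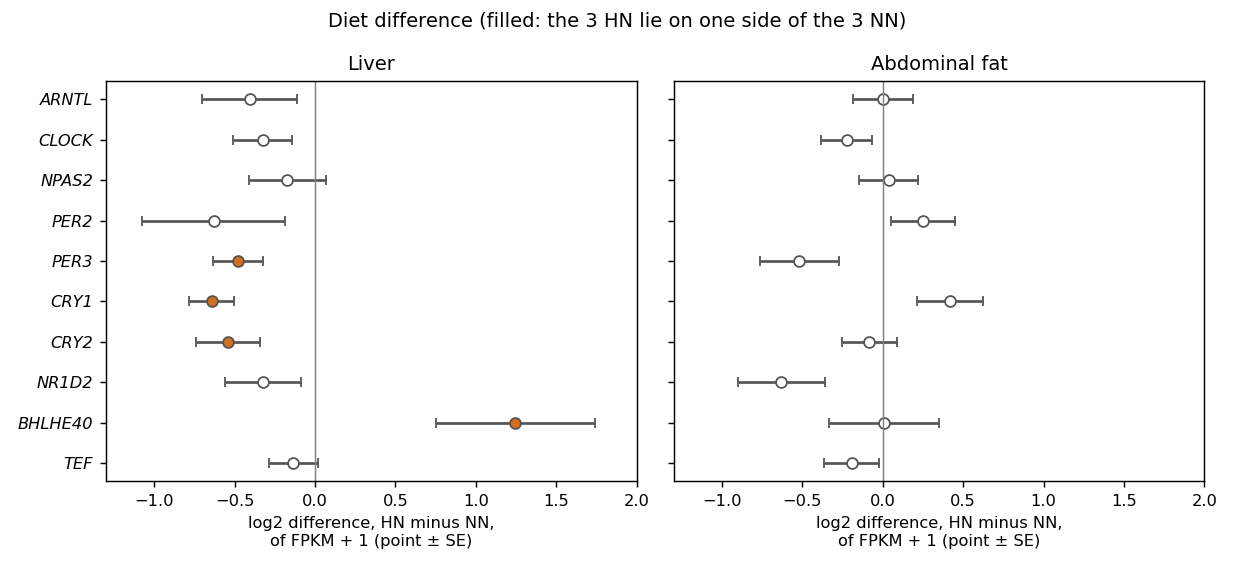
Diet difference of the 10 clock genes in liver (left) and abdominal fat (right), as HN minus NN of log2(FPKM + 1), with the point and its SE from 3 HN and 3 NN libraries. Filled points mark genes whose HN and NN libraries did not overlap, which were PER3, CRY1, CRY2 and BHLHE40 in liver and none of the 10 in fat.

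Of the other clock genes 26 were tested in liver, where 8 were higher and 18 lower in HN chickens, beside 57.8% of all genes lower. None passed at an adjusted p under 0.05. BHLHE41 (DEC2), the close relative of BHLHE40, had 12.37, 8.74 and 6.64 FPKM in HN livers, against 3.25, 2.98 and 2.37 FPKM in NN livers. The groups were well apart, with a log2 difference of 1.38 (SE 0.23, limma unadjusted p = 6.0e-04, adjusted p = 0.313), which was 1.39 without HN liver 2. KLF15, a glucocorticoid-induced factor with a daily rhythm in mammals, had 7.27, 6.13 and 9.02 FPKM in HN livers, against 12, 19.61 and 15.89 FPKM in NN livers. Its difference was -0.98 (SE 0.22, unadjusted p = 0.0030, adjusted p = 0.392). FBXL21 also reached an unadjusted p under 0.05, at -0.58 in limma (unadjusted p = 0.047), but overlapped between the diets. Without HN liver 2, FBXL21 stood at -0.34 (limma unadjusted p = 0.0972) and KLF15 at -0.86 (unadjusted p = 0.0104). KLF10 (0.90, unadjusted p = 0.00109), NFIL3 (-1.02, unadjusted p = 0.0322) and NAMPT (-0.54, unadjusted p = 0.0402) then also fell under 0.05. The adjusted p of KLF10 was 0.334, and that of NFIL3 and NAMPT 0.468. In all, 5 of the 26 did not overlap between the diets, a share near the 21.1% of all genes, with BHLHE41 higher and 4 lower in HN livers, among them KLF15, CIPC and FBXW11. Genes of the feeding state moved in these livers as well, with 11 of 16 higher and 5 lower in HN livers. Of them 6 reached an unadjusted p under 0.05 in limma with HN higher, against 3.42% of all genes. With HN lower 1 did, against 8.54% of all genes. The relation of these genes to the clock genes was not tested.

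In abdominal fat no clock gene separated the diets. Of the 10 genes 5 were higher and 5 lower in HN fats, with a median of -0.04 against -0.07 over all 12394 genes tested. None passed at an adjusted p under 0.05 in limma, where 0.00807% of genes were called, none reached an unadjusted p under 0.05, against 4.68% of all genes, and none had diets that did not overlap, against 10.3%. NR1D2 came nearest, averaging 23.7 ± 1.1 FPKM in HN fats, against 39.2 ± 14.2 FPKM in NN fats (SD, n = 3 each), a log2 difference of -0.63 (SE 0.27, unadjusted p = 0.0506, adjusted p = 0.799). PER3 stood at -0.52 (unadjusted p = 0.0698) and CRY1 at 0.42 (unadjusted p = 0.0763). Without HN fat 2, CRY1 stood at 0.21 and PER3 at -0.31. Without HN fat 3, CRY1 stood at 0.58 (limma unadjusted p = 0.0251) and PER3 at -0.69 (unadjusted p = 0.0299). That fit put 658 genes higher and 850 lower at an unadjusted p under 0.05, of 12398 tested. The main fit put 296 higher and 284 lower, of 12394. NR1D2 ranged from -0.43 without NN fat 2 (unadjusted p = 0.167) to -0.97 without NN fat 3 (unadjusted p = 0.000257, adjusted p = 0.639). None of the 24 other clock genes tested in fat passed at an unadjusted p under 0.05 in the main fit. Without HN fat 2, KLF15 stood at -0.78 (limma unadjusted p = 0.0442, adjusted p = 0.999). Over the alternatives KLF9, NR1D1 identifier 107055301 and FBXL21 also fell under 0.05 at least once. Their lowest unadjusted p in limma were 0.0218, 0.0358 and 0.0417.

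Whether the diet difference itself differed between the tissues was tested as an interaction over all 12 libraries, as the difference in liver minus that in fat. None of the 10 passed at an adjusted p under 0.05 in limma, where 0% of 13111 genes were called, and 1 reached an unadjusted p under 0.05, against 4.53% of genes. This was CRY1, with an interaction of -1.06 on the log2 scale (SE 0.25, unadjusted p = 0.00145, adjusted p = 0.616), lower in HN livers and with a higher mean in HN fats. Without the liver and fat of HN replicate 2 it was -0.84 (unadjusted p = 0.00348), and PER2 (-1.22, unadjusted p = 0.0326) and BHLHE40 (1.08, unadjusted p = 0.0295) then also fell under 0.05. Of the 27 other clock genes 1 reached an unadjusted p under 0.05. This was BHLHE41, with an interaction of 1.61 (SE 0.37, limma unadjusted p = 0.00111, adjusted p = 0.583). It had 2.71, 3.46 and 5.94 FPKM in HN fats, against 5.97, 3.83 and 4.51 FPKM in NN fats.

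Because clock genes can differ between birds sampled at different phases, each library was expressed as its deviation from the mean of its diet and tissue, and livers were compared with fats of the same number. Over all 10561 genes present in both tissues, the correlation across genes was positive in all 6 same-numbered pairs, between 0.14 and 0.46, and negative or under 0.1 in 11 of the 12 differently numbered pairs of a diet. The exception was HN liver 3 with HN fat 1 at 0.23, above the 0.14 of HN liver 3 with its own number. Deviations of the 3 libraries of a group sum to 0, which by construction draws differently numbered pairs towards negative values where same-numbered pairs are positive. Across the 10 clock genes it was 0.48, 0.63 and 0.41 for HN replicates 1, 2 and 3, but -0.23, 0.04 and -0.46 for NN replicates 1, 2 and 3. Differently numbered pairs gave values from -0.69 to 0.69 over the same 10 genes, a range that took in all same-numbered values. These correlations are across genes within a pair of libraries, and genes are not independent replicates.

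**Figure D4:**
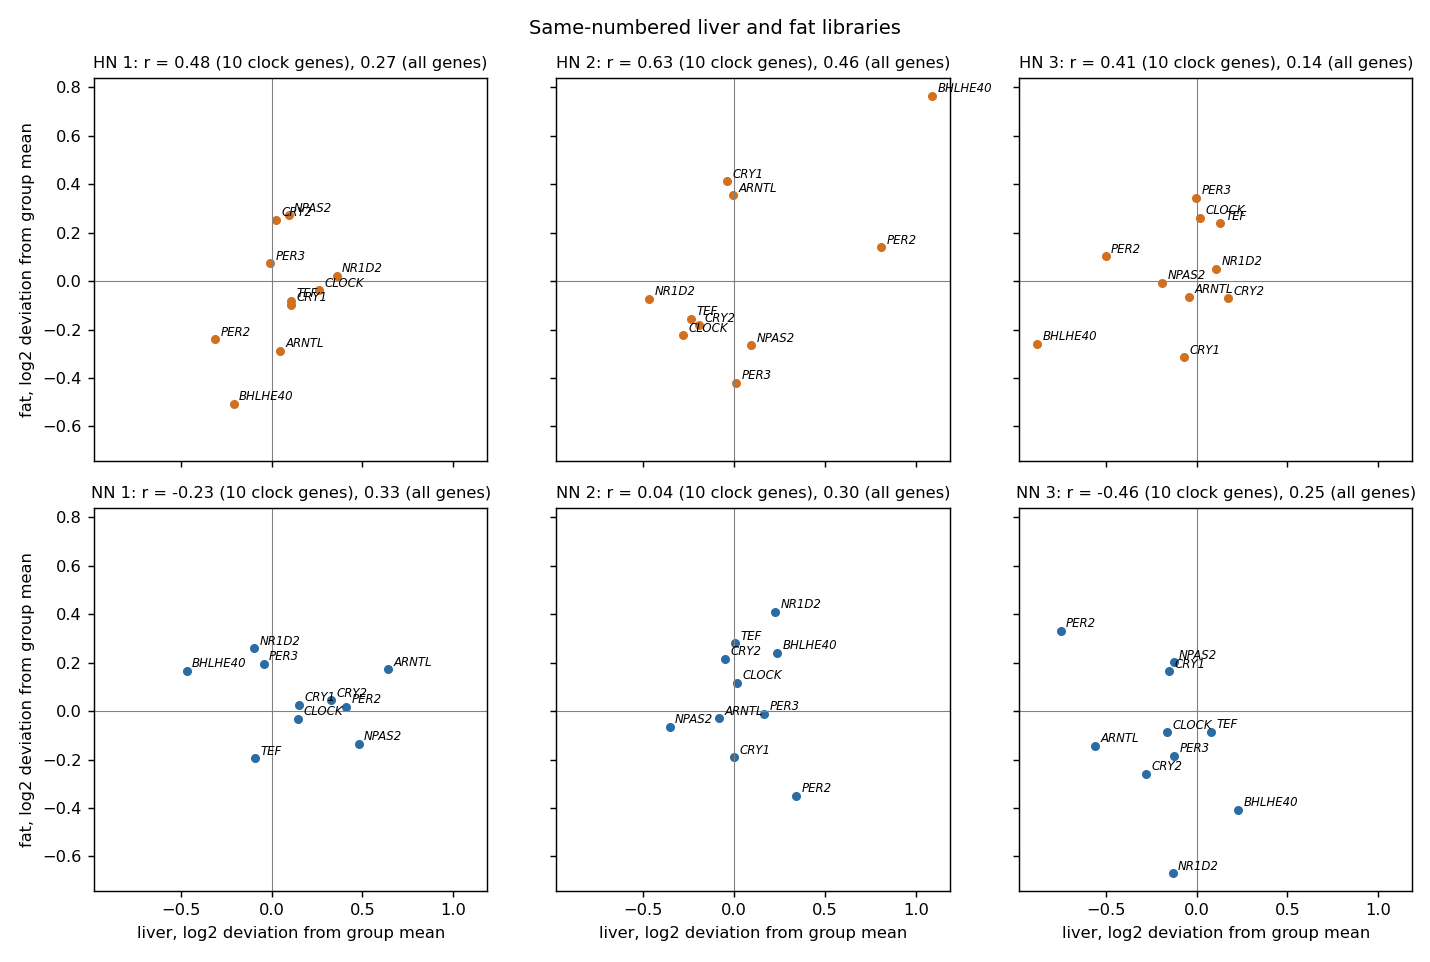
Deviation of each of the 10 clock genes from its diet and tissue mean, in liver (horizontal axis, log2) and in the fat of the same replicate number (vertical axis, log2), with 1 panel for each of the 6 pairs. The correlation r across the 10 genes and across all 10561 genes stands above each panel, and BHLHE40 lies far up and to the right in HN replicate 2 and to the lower left in HN replicates 1 and 3.

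Gene by gene, the deviations of 6 livers and 6 fats were correlated over the 6 pairs, with an exact two-sided permutation of the fats within each diet. None of the 10 reached an exact p under 0.05, against 3.62% of all genes, and the smallest p that the 36 pairings allow is 0.0278. BHLHE40 had the highest Pearson r at 0.64 (exact permutation p = 0.361) and a Spearman rho of 0.54 (exact permutation p = 0.389). Its r was -0.09 without HN replicates 2 and 3, so the relation rested on those pairs. TEF (0.49), CRY2 (0.45), CLOCK (0.42), ARNTL (0.41) and NR1D2 (0.37) had positive r, PER3 stood at 0.05, and CRY1 (-0.16), NPAS2 (-0.22) and PER2 (-0.29) were negative. After median-ratio scaling TEF stood at 0.01, CLOCK at 0.06 and NR1D2 at 0.23, while CRY2 (0.55) and ARNTL (0.41) were not lower. Without HN replicate 2 and NN replicate 1 the r of TEF was -0.38. The exact permutation p of ARNTL was 0.222, the lowest of the 10, and its r became -0.27 without NN replicates 1 and 3. The adjusted values of the 10 lay between 0.859 and 0.998. The median r over all genes was 0.25 with 64.0% of genes positive, and without HN replicate 2 it was 0.01 with 50.7% positive.

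In the liver of HN replicate 2 PER2 was 3.07 times and BHLHE40 3.15 times the mean of HN replicates 1 and 3, and in the fat the ratios were 1.15 and 2.28. Both were the highest of the 3 HN libraries in both tissues, while CLOCK, CRY2, NR1D2 and TEF were the lowest in both tissues. Thus 4 of 10 clock genes were lowest in both tissues, against 30% of all genes, and 2 of 10 were highest in both, against 11.7%. In NN replicate 3, named after its values were seen, 5 of 10 were the lowest of the NN libraries in both tissues (ARNTL, CLOCK, PER3, CRY2 and NR1D2). This held for 13.3% of all genes, and none of the 10 was the highest in both. Some of these ranks were close, as for CLOCK in fat (13.40 FPKM, against 13.97 FPKM in NN fat 1). NR1D2 in liver had 12.26 FPKM, against 12.59 FPKM in NN liver 1. Across the 10 genes the liver and fat deviations of this pair had an r of -0.46. Of 23 other clock genes, 6 were highest and 6 lowest in both tissues of HN replicate 2, the lowest including CIPC, TIMELESS and KLF10. NOCT (nocturnin), a clock output gene, reached 19.09 FPKM in this liver, where the other HN livers averaged 3.19 FPKM, and 70.93 FPKM in this fat, where the other HN fats averaged 7.10 FPKM. NFIL3 was 5.46 times higher in liver and 4.4 times in fat, and KLF9 2.04 and 1.90 times.

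Of 11 genes known to respond to glucocorticoids or handling, 8 were highest in HN replicate 2 in both tissues, against 11.7% of all genes. Others on that list were not, since TSC22D3 stood at 0.62 times the mean of the other HN livers and 1.605 times in fat. SGK1 stood at 2.69 times in liver and 0.97 times in fat. KLF15, described above as glucocorticoid-induced, stood at 0.75 times in liver and 2.78 times in fat. FKBP5, a glucocorticoid-induced chaperone partner, reached 369.3 FPKM in the liver of HN replicate 2, 18.0 times the mean of the other HN livers, and 248.4 FPKM in its fat, 10.2 times the mean of the other HN fats. ZBTB16 was 13.7 times higher in liver and 5.98 times in fat, and the stress-induced ATF3 23.5 and 13.0 times. The immediate early genes FOS (5.84 times) and JUN (11.2 times) were high in this liver, but stood at 1.02 and 1.11 times in the fat. JUN still counted among the 8, by a narrow margin in fat (332.75 FPKM, against 330.29 FPKM in HN fat 1). The part of these genes in the values of PER2 and BHLHE40 was not tested.

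**Figure D5:**
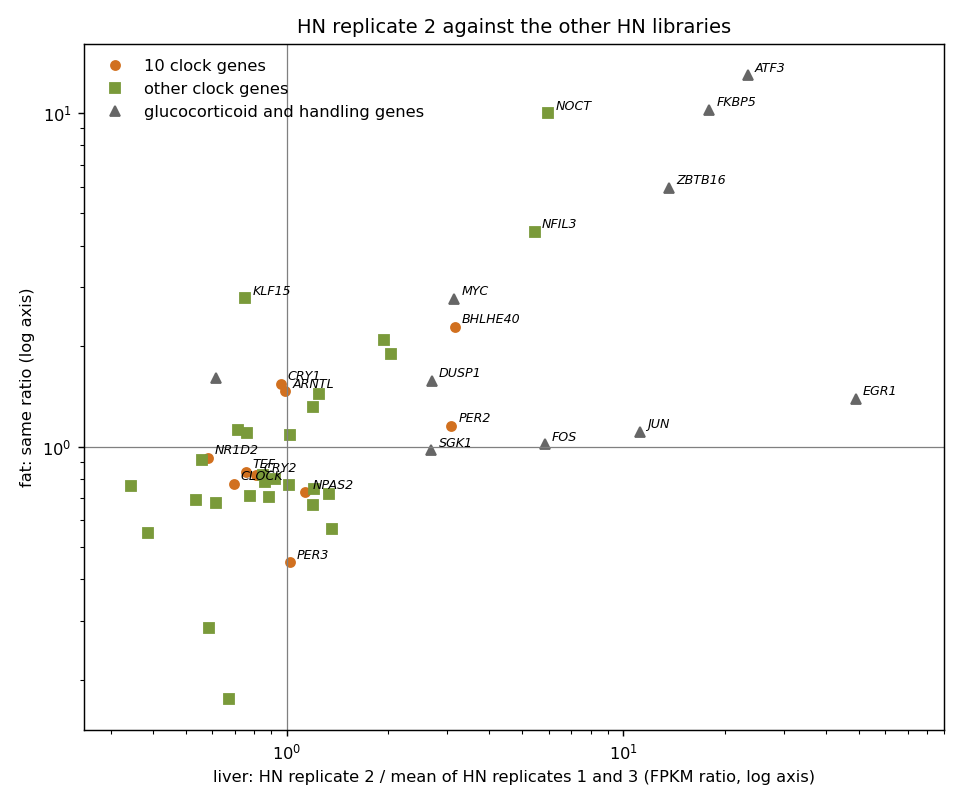
Ratio of HN replicate 2 to the mean of HN replicates 1 and 3 in liver (horizontal log axis) and in abdominal fat (vertical log axis), from FPKM, with 1 point per gene. BHLHE40 is the only one of the 10 clock genes (orange circles) above 2 in both tissues, and NOCT and NFIL3 (green squares) and ATF3, FKBP5, ZBTB16 and MYC (grey triangles) lie above 2 in both.

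The genes whose pattern was most like that of ARNTL were sought among 10561 genes, by Pearson r over the 12 deviations from the diet and tissue means. The highest 5 were MTUS1 (0.89), CRIPT (0.89), PDP1 (0.88), ECD (0.87) and RAE1 (0.87), and the lowest included PEMT (-0.92), PLOD1 (-0.92), SLC26A11 (-0.91) and JMJD8 (-0.88). None of them is among the 10 clock genes or the other clock genes. With ARNTL, CRY1 had an r of 0.58, PER2 of 0.50, CRY2 of 0.40, NPAS2 of 0.25, CLOCK of 0.20, NR1D2 of 0.10 and BHLHE40 of 0.04, while PER3 (-0.16) and TEF (-0.32) were negative. ARNTL deviated by 0.64 in NN liver 1 and by -0.56 in NN liver 3, but by no more than 0.083 in size in any other liver. The liver values of r with ARNTL therefore rest largely on those livers, and none was left out for them. The r of NPAS2 was 0.75 over the 6 livers and -0.95 over the 6 fats. The sign also differed between livers and fats for CRY2 (0.85 and -0.39), CLOCK (0.51 and -0.42), BHLHE40 (-0.33 and 0.93) and PER3 (0.15 and -0.42). It was the same in both tissues for CRY1, PER2, NR1D2 and TEF. Over the 12 deviations, CSNK1D alone among the other clock genes went beyond 0.7 in size, at 0.84. Between the clock genes, the highest r was that of CLOCK with TEF (0.67) and the lowest that of PER3 with CRY1 (-0.73). These values are descriptions over 12 libraries that share 4 group means and the FPKM scaling.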

How the data were processed

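RNA of livers and abdominal fats was sequenced on the BGISEQ-500 platform, and the authors deposited FPKM per gene and library, already scaled for library size and transcript length. The submitters' processing notes name HISAT2 2.0.4, Bowtie2 2.2.5 and RSEM 1.2.12. The role of each, the genome build and the annotation are not given in the sources used here, and neither is strandedness. No counts were given, so a count test was not used and depth in reads is unknown.

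Groups were taken from the labels (diet, tissue, replicate). The methods give 3 livers and 3 abdominal fats for each group, so the libraries of a group in 1 tissue were taken as separate birds. The diets were compared within each tissue with limma 3.58.1 in R 4.3.3 (lmFit, eBayes with trend) on log2(FPKM + 1), for genes averaging 1 FPKM or more over the 6 libraries. Liver minus fat and the interaction of diet and tissue were fitted on the 12 libraries together, for genes averaging 1 FPKM or more in at least 1 tissue. All 10 clock genes passed each filter. Adjustment was by Benjamini-Hochberg over all genes tested, with a threshold of 0.05. Fold changes on this scale understate the change of genes with low FPKM, PER3 above all. The correlations used Python 3.11.15 with scipy 1.17.1, and genes averaging 1 FPKM or more in each tissue. The scripts were tested on simulated data.

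Same-numbered liver and fat libraries deviated together over all genes (r from 0.14 to 0.46 in the 6 pairs). The correlations were planned on same-numbered libraries. That the number pairs liver with fat is a finding from the data and not from the labels. The pairing is uncertain, since HN liver 3 was more like HN fat 1 (r = 0.23) than HN fat 3 (r = 0.14). Gene by gene, the median r over all genes was 0.25, and 0.01 without HN replicate 2. The main fits of liver minus fat and of the interaction left this pairing out. Their SE and p-values treat the 12 libraries as independent, and only the replicate block used the pairing. For HN and NN libraries of the same number r ranged from -0.04 to 0.40 and was not above 0.1 in every pair (liver 0.40, 0.09 and -0.04, fat 0.22, 0.04 and 0.23), so they were not paired. Some of these r lay within the range of the liver-fat pairs, though the diets were fed to different birds.

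The clock genes and the lists of other clock, feeding state, glucocorticoid and handling, and marker genes were chosen with earlier results of these data known. Genes like ARNTL were the 5 with the highest and the 5 with the lowest r. Some genes that these rules select are not reported here. Other clock genes are named where they were called between the tissues, had an unadjusted p under 0.05 between the diets or had an r with ARNTL beyond 0.7 in size, and otherwise where a sentence turns on them, as with those chosen after their values were seen for not overlapping between the diets or for their level in HN replicate 2. DBP, RORB and PER1 were not analysed here, nor were promoter sequences. Alternatives were log2(FPKM + 0.1), median-ratio scaling, no filter, a replicate block, all 12 libraries in 1 fit for the diets, raw values in the correlation, and each replicate left out in turn. Leaving out the liver and fat of HN replicate 2 together was added after seeing the data.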

Additional observations from a re-analysis of the deposited data

Results flagged for a closer look

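The diet difference of 2 genes differed between liver and abdominal fat at an unadjusted p under 0.05 in the interaction test, and neither passed after adjustment over all 13111 genes. For CRY1 the difference in liver minus that in fat was -1.06 (limma unadjusted p = 0.00145, adjusted p = 0.616), with lower values in all 3 HN livers than in all NN livers and overlapping values in fat. For BHLHE41 it was 1.61 (unadjusted p = 0.00111, adjusted p = 0.583), with higher values in all 3 HN livers and overlapping values in fat. They were 1 of the 10 clock genes and 1 of the 27 other clock genes tested. Among all genes tested 4.53% reached an unadjusted p under 0.05, so a count of this size is near the background.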

How the results depend on the processing

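The number of clock genes called at an adjusted p under 0.05 stayed at 0 for the diet in liver, the diet in fat and the interaction under every alternative run, and at 8 or 9 for liver minus fat. Genes at an unadjusted p under 0.05 numbered 1 to 4 in liver, 0 to 2 in fat and 1 to 3 in the interaction when each library was left out in turn. They numbered 3 in fat with all 12 libraries in 1 fit, and 3 in the interaction without the liver and fat of HN replicate 2. With the replicate block they numbered 1 in fat (NR1D2) and 2 in the interaction (CRY1 and BHLHE40), and the block changed no call other than that of BHLHE40 between the tissues. The counts over all genes at this threshold moved too. In liver 216 were higher and 347 lower without NN replicate 1, but 650 and 1046 without HN replicate 1. In fat they were 658 and 850 without HN replicate 3, where CRY1 and PER3 passed, and 334 and 394 with all 12 libraries in 1 fit. In the interaction they were 190 and 223 without NN fat 1, but 442 and 413 without HN liver 1. With median-ratio scaling BHLHE40 stood at 0.18 and PER3 at 0.33 in liver minus fat, the interaction of PER3 at -0.028, and the liver-fat r at 0.0056 for NPAS2, -0.29 for PER3 and 0.23 for CRY1. The interaction of PER3 was -0.17 without the liver and fat of HN replicate 2. The causes were not tested.

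Single libraries turned the sign of several small values. In liver NPAS2 ranged from -0.35 to 0.067. In fat ARNTL ranged from -0.17 to 0.15, BHLHE40 from -0.37 to 0.26, CRY2 from -0.21 to 0.0235 and NPAS2 from -0.10 to 0.17. In the interaction CLOCK ranged from -0.23 to 0.039, NPAS2 from -0.39 to 0.030, PER3 from -0.17 to 0.21 and TEF from -0.083 to 0.18. The liver-fat r ranged from -0.34 to 0.75 for CLOCK, -0.52 to 0.27 for NPAS2, -0.78 to 0.38 for PER2, -0.33 to 0.26 for PER3, -0.55 to 0.14 for CRY1, -0.025 to 0.63 for CRY2 and -0.50 to 0.83 for BHLHE40. With 1 pair left out the 12 remaining pairings cannot give an exact p below 0.0833, so no count was made.

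With 3 libraries a group and no counts, differences the size of those of ARNTL or PER2 between the diets cannot be told from the spread between libraries. The deposited scaling and median-ratio scaling differ by 0.65 on the log2 scale between the tissues. Without a time of sampling, a difference in clock phase and a difference in mean level cannot be told apart. PER3 had the lowest mean level of the 10 in every group, and log2(FPKM + 1) understates its changes most. Its SE in liver minus fat was 0.14, between the smallest of the 10 (TEF, 0.12) and the largest (BHLHE40, 0.33).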
